A study of Mus musculus with 6 samples.

Results

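The 37 genes of the mouse mitochondrial genome were followed in RNA sequencing of basal keratinocytes from 3 groups of mice. The genes are all rows of the deposited table whose name starts with mt-, 37 of 49671 rows, with 13 protein genes, 2 ribosomal RNA (rRNA) genes and 22 transfer RNA (tRNA) genes. All 37 identifiers matched genes of chromosome M in the GENCODE M21 annotation of GRCm38, the build named in the submitters' processing notes.

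Mitochondrial DNA is a small circle that encodes core subunits of the respiratory chain (mt-Nd genes for complex I, mt-Cytb for complex III, mt-Co genes for complex IV) and of ATP synthase (mt-Atp genes), with the rRNAs and tRNAs needed to translate them. Both strands are transcribed into long precursors, and excision of the tRNAs that lie between the other genes releases the mRNAs and rRNAs. The remaining subunits of these complexes, and all enzymes that copy, transcribe and process mitochondrial RNA, are encoded in the nucleus. In epidermis, basal keratinocytes divide and give rise to the suprabasal layers.

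Living cells that carried integrin alpha 6 and lacked CD34, the marker of the hair follicle bulge, were sorted from ear epidermis of CD1 mice, an outbred stock. The groups were intact males, females and castrated males, with 2 libraries per group, and the labels name no allele, transgene or other agent in any of them. A library was made from the polyA RNA of 100000 sorted cells pooled from a pair of littermates, so the spread between replicates is that between pools, and litter and group cannot be told apart. Neither age nor the interval since castration is stated in the sources used here. The same male libraries serve in 2 of the comparisons, and so do the same female libraries.

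The libraries held between 8412487 and 9648154 reads, so that 1 read was worth 0.104 to 0.119 CPM (reads relative to library size), and a count of 0 allowed up to 0.311 to 0.357 CPM (3 reads, counting error only). CPM values are scaled by TMM factors, which correct for a few genes taking many reads. The factor was 0.927 in female replicate 2, which raises its values, and 1.01 to 1.03 in the other libraries. Basal markers were abundant in all libraries (7 of 7 tested, summed level 41210 to 48668 CPM), and 0 of 7 were called by limma in any comparison. Among them Krt15, Col17a1 and Itgb4 were lower in both female than in both male libraries (log2 fold changes -0.71, -0.57 and -0.45, limma adjusted p = 0.136, 0.109 and 0.0705). Krt14 was higher in both female than in both male libraries (0.21, limma adjusted p = 0.588). In females against males, 3 of the 7 had a positive log2 fold change. The 5 suprabasal markers summed to 638 to 771 CPM in males, 1058 to 1357 in females, with 1029 to 1074 in castrated males, and 2 of them (Krt1 and Krtdap) were called higher in females than in males, where 6.1% of all tested genes were called. The part of the basal markers in the differences of the mitochondrial genes was not tested. The 4 erythrocyte, 6 fibroblast and 5 adipocyte markers each had their highest sum in male replicate 1 (37.8, 26.9 and 18.9 CPM, against at most 9.36, 14.8 and 11.2 in the other libraries). The 5 melanocyte markers had theirs in castrated male replicate 2 (72.5 CPM, against 26.5 to 39.1 in the other libraries). Of 8 skeletal muscle markers, 5 had no read in any library, and the others summed to 1.02 to 1.74 CPM. In bulk RNA, fewer cells of a type and less RNA per cell cannot be told apart.

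The protein genes fell into a group of 7 that held 99.8% of all reads on mitochondrial protein genes and a group of 6 with almost none. Per kilobase of gene, the mean over libraries was 2129 CPM for mt-Cytb, 1556 for mt-Nd1, 753 for mt-Co1, 370 for mt-Nd4, 332 for mt-Nd5, 319 for mt-Nd6 and 266 for mt-Nd2. The rRNAs of the large (mt-Rnr2) and small (mt-Rnr1) mitochondrial ribosomal subunit had 1038 and 439 CPM per kilobase. The other protein genes had 7.22 (mt-Atp6), 5.01 (mt-Atp8), 3.61 (mt-Co3), 2.54 (mt-Co2), 0.870 (mt-Nd4l) and 0.158 CPM per kilobase (mt-Nd3). Per kilobase of full gene length, the order mt-Cytb, mt-Nd1, mt-Rnr2, mt-Co1 held in 6 of 6 libraries. Further down, mt-Nd5 exceeded mt-Nd6 in 5 of 6 libraries, and mt-Rnr1 exceeded mt-Nd4 in 4 of 6, so these neighbours in the order were not separated in every library. The order depends on the scale, since 51.1% of mt-Co1 and 62.2% of mt-Nd4 50-base windows also occur in nuclear transcripts. Per kilobase of start positions of unshared windows, mean mt-Co1 (1591 CPM) exceeded mt-Rnr2 (1082). On that scale mt-Nd4 (1015) exceeded mt-Rnr1 (463). How reads from shared windows were counted is not stated, so the data do not decide between the scales.

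**Figure D1:**
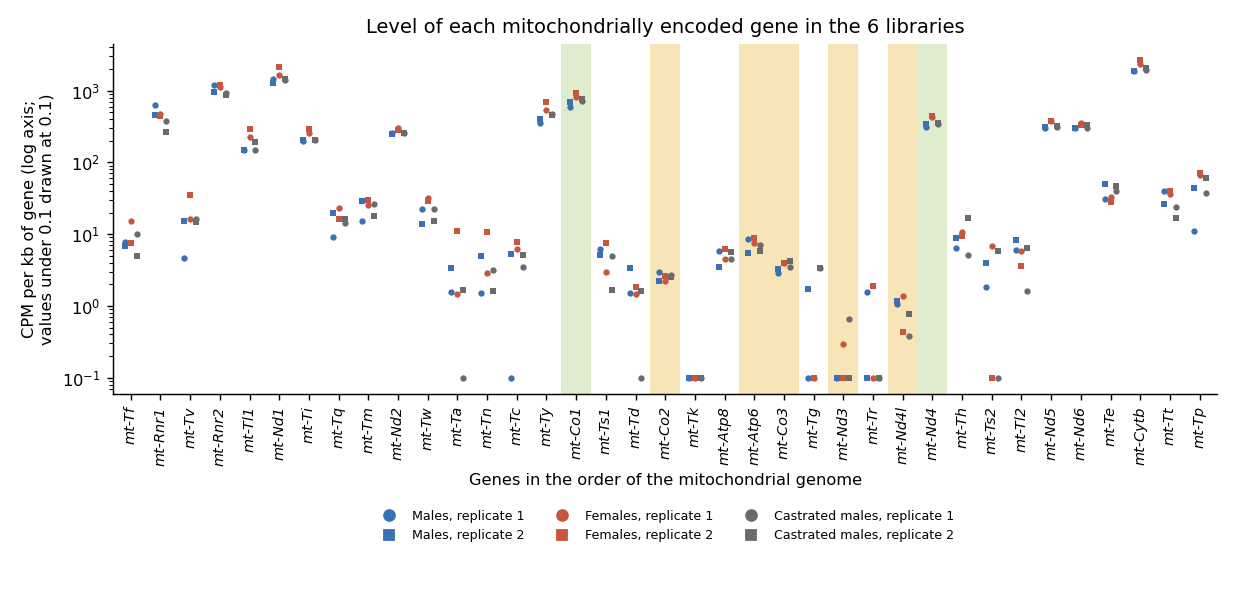
Level of each mitochondrially encoded gene per kilobase of gene in the 6 libraries (log axis), in genome order; yellow bands mark genes with at least 95% and green bands genes with 50% to 95% of their 50-base windows shared with a nuclear transcript. The 5 yellow genes lie below 10 CPM per kilobase in every library, while mt-Co1 and mt-Nd4 (green) lie above 300.

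Besides mt-Atp8, the 5 protein genes with almost no reads have near-identical copies in the nuclear genome. Pieces of mitochondrial DNA inserted into chromosomes are known as nuclear mitochondrial segments, and a read from the shared sequence matches both places. On chromosome 1, GENCODE annotates 7 unprocessed pseudogenes within chr1:24611535-24616197 (GRCm38, 4663 bases, all on the minus strand), in the order of their mitochondrial counterparts from mt-Co1 to mt-Nd4. Gm28437 equals mt-Co3 in 783 of 783 aligned bases, Gm10925 equals mt-Atp6 in 678 of 678, Gm28661 equals mt-Co2 in 681 of 681 and Gm10222 equals mt-Nd4l in 294 of 294. Of all 50-base windows of the gene, 100.0% in mt-Co2, 99.9% in mt-Co3, 99.5% in mt-Atp6, 98.8% in mt-Nd4l and 98.0% in mt-Nd3 also occur in an annotated nuclear transcript.

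Mitochondrial mt-Nd3 (chrM:9459-9518, plus strand, the first 60 bases) and its chromosome 1 copy Gm28438 (chr1:24613060-24613119, minus strand) are shown because a single base tells them apart. They equal each other in 344 of 345 aligned bases, and the capital marks the difference, T3C counted from the first base of mt-Nd3.
mt-Nd3: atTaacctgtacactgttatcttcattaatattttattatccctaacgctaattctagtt
Gm28438: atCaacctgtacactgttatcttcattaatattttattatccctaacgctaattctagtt

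For mt-Co1 the copy covers only the 3′ part of the gene. Gm29216 equals it in 486 of 492 aligned bases, and its edge is shown because all 6 differences lie there (T1056A, C1057T, A1059G, A1060G, C1062A and A1066T, counted from the first base of mt-Co1). The mitochondrial stretch is chrM:6381-6440 (plus strand, bases 1054 to 1113 of the gene), the nuclear one chr1:24616138-24616197 (minus strand), and capitals mark the differences.
mt-Co1: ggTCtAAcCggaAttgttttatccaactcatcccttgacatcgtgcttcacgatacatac
Gm29216: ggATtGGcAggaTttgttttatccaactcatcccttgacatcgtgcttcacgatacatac

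The reads assigned to both places differed by gene. Over the 6 libraries mt-Nd3 had 3 reads and Gm28438 had 712, mt-Co3 had 150 and Gm28437 had 1513, and mt-Atp6 had 261 and Gm10925 had 1139. For mt-Co2 and Gm28661 the totals were 92 and 543, and for mt-Nd4l and Gm10222 they were 14 and 49. In each of these 5 pairs the nuclear copy was higher in 6 of 6 libraries. With the copy's reads added, mt-Co3 reached 40.0 CPM per kilobase, mt-Nd3 38.9, mt-Atp6 38.7, mt-Co2 17.5 and mt-Nd4l 3.96, still below the lowest of the 7 abundant protein genes (mt-Nd2, 266). No source used here states how reads that match several places were counted, so RNA of the mitochondrial gene and of its copy cannot be told apart in these rows.

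Where the chromosome 1 copy covers only a part, the mitochondrial row held nearly all reads. mt-Co1, whose product is the catalytic subunit of cytochrome oxidase, had 61404 reads against 400 for Gm29216. Of its 1496 windows 765 are shared with nuclear transcripts, 430 of them with Gm29216. mt-Nd4, a membrane subunit of complex I, had 26949 reads against 102 for Gm28439, which equals its 5′ part in 876 of 876 bases, and 62.2% of its windows are shared. mt-Nd2 and mt-Nd5 share 8.19% and 7.61% of their windows, and mt-Nd1, mt-Cytb, mt-Nd6 and mt-Rnr1 share none.

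mt-Atp8 was low without an annotated nuclear counterpart. The gene encodes a small ATP synthase subunit, shares none of its windows with an annotated transcript and overlaps mt-Atp6 by 43 bases, where reads belong to both genes. Between the copies of mt-Atp6 and mt-Co2, chromosome 1 has 233 bases with no annotated gene, and the mitochondrial genome has 230 bases between the same genes, the interval that holds most of mt-Atp8. Its levels were 1.17 and 0.705 CPM in males, 0.920 and 1.28 in females, with 0.910 and 1.14 in castrated males. These groups overlap, and no library had more than 11 reads.

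**Figure D2:**
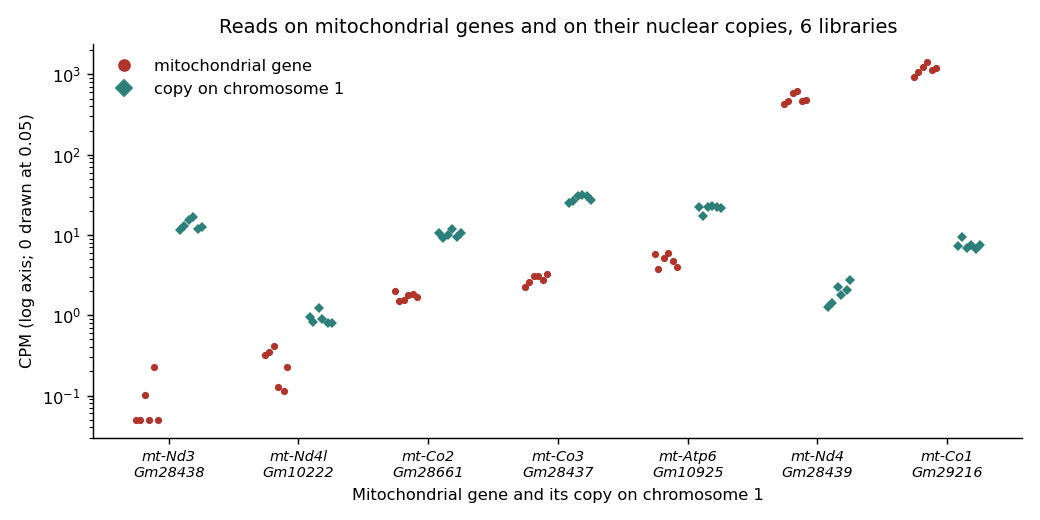
CPM (log axis) of 7 mitochondrial protein genes and of their copies on chromosome 1, with 1 point per library in the order males, females, castrated males from left to right. The copy is higher in 6 of 6 libraries for mt-Nd3, mt-Nd4l, mt-Co2, mt-Co3 and mt-Atp6, and lower in 6 of 6 for mt-Nd4 and mt-Co1.

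All mitochondrial genes together took 0.794% to 0.995% of the reads of a library, counting only reads assigned to their rows. Reads from sequence shared with nuclear copies may be missing from this share. The share was higher in females. It was 0.847% and 0.794% in males, 0.975% and 0.995% in females, with 0.833% and 0.820% in castrated males. The 95% Wilson interval was 0.841% to 0.853% in male replicate 1, which covers counting error only. Both female libraries lay above all others, and castrated males lay between the male libraries. The mean was 0.985% ± 0.0138 (SD, n = 2) in females, with 0.820% ± 0.0374 in males, a ratio of 1.20, and 0.826% ± 0.00956 in castrated males, a ratio of 1.01 to males and 0.839 to females. An exact two-sided permutation test gave p = 0.333 for females against males and for castrated males against females and p = 1 for castrated males against males. With 2 libraries a group this test cannot give less than 0.333.

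Protein and tRNA genes ordered the groups alike, and the rRNA genes ordered them differently. Protein genes took 0.591% and 0.592% of reads in males, 0.742% and 0.771% in females, with 0.636% and 0.649% in castrated males, so that no groups overlapped and castrated males stood between the others (ratio to males 1.28 for females and 1.09 for castrated males). The 5 abundant protein genes with under 10% shared windows (mt-Nd1, mt-Nd2, mt-Nd5, mt-Nd6 and mt-Cytb) gave a ratio of 1.27 between females and males. For the rRNA genes the shares were 0.250% and 0.195% in males, 0.224% and 0.214% in females, with 0.189% and 0.163% in castrated males. Males and females overlapped, and castrated males were below both. The tRNA genes took 0.00604% and 0.00700% in males, 0.00921% and 0.0101% in females, with 0.00736% and 0.00768% in castrated males, again with females highest and no overlap. The suprabasal marker sum was also higher in females and castrated males than in males, and its part in these shares was not tested.

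**Figure D3:**
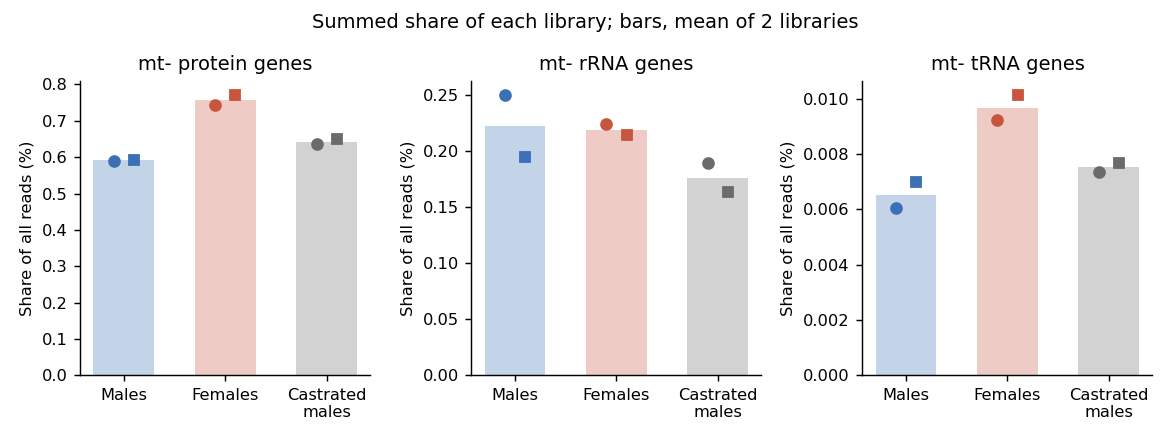
Share of all reads in each library (percent, axes from 0) for mitochondrial protein, rRNA and tRNA genes; circles are replicate 1, squares replicate 2, and bars the mean of 2 libraries. Females are highest for protein genes (0.742% and 0.771%) and tRNA genes, and castrated males are lowest for rRNA genes (0.189% and 0.163%).

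All 7 abundant protein genes were higher in both female than in both male libraries, as were 26.6% of all tested genes, and none passed the test, which 6.1% of all tested genes did. The largest was mt-Cytb, the cytochrome b of complex III, with 2117 and 2146 CPM in males, 2723 and 3064 in females, with 2234 and 2332 in castrated males. Its females lay above all other libraries. The log2 fold change against males was 0.44 ± 0.14 (SE) on the log2(CPM + 0.5) scale used throughout (limma, adjusted p = 0.105). With 1 library left out it ranged from 0.35 to 0.53. It made up 36.2% to 37.2% of all reads on mitochondrial protein genes in each of the 6 libraries.

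For mt-Nd1, a complex I subunit next to the rRNA genes, the levels were 1377 and 1230 CPM in males, 1586 and 2021 in females, with 1350 and 1369 in castrated males. Both castrated libraries fell between the males, and female replicate 2 was the highest. The difference of females against males was 0.46 ± 0.16 (limma adjusted p = 0.114), and 0.28 to 0.64 with 1 library left out. mt-Co1 had 922 and 1062 CPM in males, 1247 and 1433 in females, with 1120 and 1194 in castrated males. Here the groups did not overlap and castrated males stood between the others, with 0.43 ± 0.14 for females and 0.23 ± 0.14 for castrated males against males (limma adjusted p = 0.103 and 0.951). With 1 library left out, the difference between females and males ranged from 0.33 to 0.54.

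In the abundant complex I genes mt-Nd4, mt-Nd5 and mt-Nd2, females were also highest. mt-Nd4 was at 428 and 470 CPM in males, 583 and 619 in females, with 473 and 483 in castrated males (females against males 0.42 ± 0.12, limma adjusted p = 0.0703, the lowest among the protein genes). mt-Nd5 had 555 and 558 CPM in males, 678 and 695 in females, with 561 and 581 in castrated males (0.30 ± 0.11, limma adjusted p = 0.147). Females stood apart for both, while castrated males exceeded males by at most 0.092 on the log2 scale. mt-Nd2 had 263 and 259 CPM in males, 311 and 295 in females, with 263 and 266 in castrated males, with females above both male groups (0.21 ± 0.11, limma adjusted p = 0.270).

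mt-Nd6, a complex I subunit, is the only protein gene of the light strand. It had 156 and 157 CPM in males, 181 and 172 in females, with 155 and 170 in castrated males. Females were highest by the smallest margin among the 7 genes (0.17 ± 0.11, limma adjusted p = 0.394). Per 100 reads on heavy-strand protein genes, mt-Nd6 had 2.75 and 2.75 reads in males, 2.53 and 2.12 in females, with 2.59 and 2.73 in castrated males. Females were lowest in this ratio and did not overlap males or castrated males (exact permutation test, p = 0.333, the smallest possible). No source used here states the strand setting of the counting, so reads of mt-Nd6 and of RNA from the opposite strand cannot be told apart, and the gene overlaps mt-Nd5 by 14 bases.

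**Figure D4:**
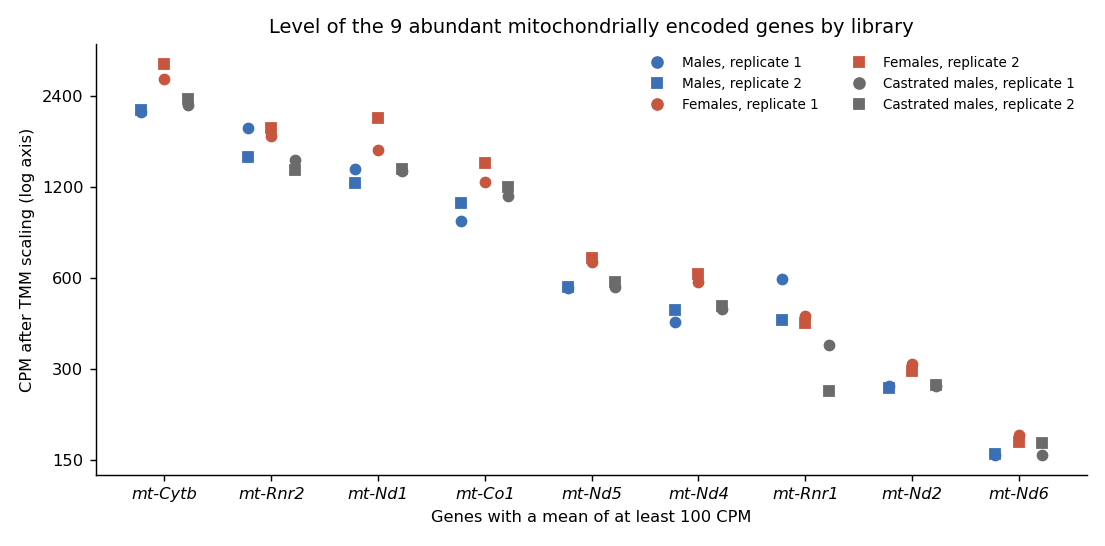
CPM (log axis) of the 9 mitochondrially encoded genes that averaged 100 CPM or more, ordered by mean, with 1 point per library; genes differ in length, so heights compare libraries within a gene. For the 7 protein genes both female points lie above both male points, and for mt-Rnr1 and mt-Rnr2 both castrated points lie below both male points.

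The rRNA genes ordered the groups in another way. mt-Rnr1 was at 594 and 436 CPM in males, 448 and 426 in females, with 360 and 254 in castrated males. Castrated males were below all other libraries and male replicate 1 was above them, with a log2 fold change of -0.75 ± 0.19 for castrated males against males (limma adjusted p = 0.545) and -0.22 ± 0.19 for females against males (adjusted p = 0.524). Without male replicate 1 the latter was 0.011 and the former -0.50. mt-Rnr2 had 1872 and 1500 CPM in males, 1764 and 1883 in females, with 1476 and 1358 in castrated males, where castrated males were again lowest (against males -0.24 ± 0.15, against females -0.36 ± 0.15, limma adjusted p = 0.956 and 0.214).

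Relative to the protein genes, rRNA was highest in males. Per 100 reads on protein genes, the rRNA genes had 42.3 and 32.9 reads in males, 30.2 and 27.8 in females, with 29.8 and 25.2 in castrated males. Both male libraries were above all others, and females and castrated males overlapped. Per 100 mt-Rnr2 reads, mt-Rnr1 had 31.7 and 29.1 in males, 25.4 and 22.6 in females, with 24.4 and 18.7 in castrated males, with males again apart (exact permutation test, p = 0.333 for both ratios against females and against castrated males, the smallest possible). Male replicate 1, the highest library in both ratios, is also the one with the most reads on erythrocyte, fibroblast and adipocyte markers, and their part in this was not tested. Castrated male replicate 2, the lowest library in both ratios, had the highest sum of melanocyte markers, whose part was not tested either. The counted RNA had been selected by its polyA tail. Even so, the listed RNAs known to lack such a tail summed to 5441 to 6569 CPM per library. The sum was 5479 and 6569 CPM in males, 5908 and 5441 in females, with 6086 and 6294 in castrated males. Tailed and untailed rRNA therefore cannot be told apart in these values. Of the 7 tested RNAs known to lack such a tail, limma called 0 in each comparison, beside 6.1% of all tested genes in females against males, 0.0389% in castrated males against males and 1.73% in castrated males against females. In females against males 5 of the 7 were positive with a median of 0.43 (the rRNA row Rn18s-rs5 at 0.43 ± 0.17, limma adjusted p = 0.172), and 1 of the 7 was positive in castrated males against females, with a median of -0.34. In castrated males against males 2 of the 7 were positive, with a median of -0.21. These medians changed with the library left out. That of females against males was 0.087 without male replicate 2 and 0.58 without female replicate 1. That of castrated males against males was 0.094 without castrated male replicate 1 and -0.29 without castrated male replicate 2. The part of these RNAs in the differences of the mitochondrial genes was not tested.

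tRNA genes had few reads, 4187 in all libraries together. Of the 22 genes, 10 entered the test, 11 had between 2 and 34 reads in all, and mt-Tk had none in any library. mt-Ty, mt-Ti and mt-Tl1 held 79.1% of the tRNA reads, and the other 7 tested genes had means of 1.17 to 3.24 CPM. Sequences of the 3 leading genes and of mt-Tp, whose fold change was the largest, are shown to place them beside their neighbours. mt-Ty, the tRNA for tyrosine (chrM:5260-5326, minus strand), lies 1 base before mt-Co1, which is on the opposite strand. mt-Tl1, a leucine tRNA (chrM:2676-2750, plus strand), lies between mt-Rnr2 and mt-Nd1 with 0 bases on either side. mt-Ti, the isoleucine tRNA (chrM:3706-3774, plus strand), overlaps mt-Nd1 by 2 and mt-Tq by 3 bases, marked by capitals. mt-Tp, the proline tRNA (chrM:15356-15422, minus strand), follows mt-Tt, on the opposite strand, with 0 bases between.
mt-Ty: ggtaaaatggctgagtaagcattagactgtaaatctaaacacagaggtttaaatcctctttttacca
mt-Tl1: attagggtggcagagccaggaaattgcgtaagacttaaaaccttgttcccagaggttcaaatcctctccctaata
mt-Ti: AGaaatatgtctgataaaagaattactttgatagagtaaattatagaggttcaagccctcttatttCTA
mt-Tp: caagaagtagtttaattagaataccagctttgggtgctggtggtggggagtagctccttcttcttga

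The level of mt-Ty rose in females against males, the only call among mitochondrially encoded genes. It had 221 and 230 reads in males, 357 and 358 in females, with 278 and 273 in castrated males. These are 23.5 and 27.0 CPM in males, 36.5 and 45.9 in females, with 31.6 and 31.1 in castrated males, with no overlap of the groups and castrated males between the others. The log2 fold change of females against males was 0.69 ± 0.17 (limma adjusted p = 0.0483), and 11 of the 17 alternative settings moved the adjusted p above 0.05. Among these were leaving out either male library, female replicate 2 or either castrated library (0.52 to 0.76, limma adjusted p = 0.0688 to 0.317). Reads on mt-Ty per 100 reads on mt-Co1 were 2.55 and 2.55 in males, 2.93 and 3.20 in females, with 2.82 and 2.60 in castrated males. The ratio was also highest in females. A mature tRNA carries no polyA tail, and whether these reads come from tRNA or from longer RNA across the site was not tested.

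Of the other 9 tested tRNA genes, 8 had a positive log2 fold change in females against males and none was called. mt-Tl1 had 11.1 and 11.3 CPM in males, 17.2 and 22.1 in females, with 11.3 and 14.6 in castrated males (females against males 0.77 ± 0.22, limma adjusted p = 0.0698). mt-Ti had 13.6 and 14.3 CPM in males, 17.9 and 20.1 in females, with 14.0 in both castrated libraries (0.43 ± 0.18, adjusted p = 0.185). Females stood apart from both male groups for both genes. mt-Tp had 0.746 and 2.94 CPM in males, 4.40 and 4.74 in females, with 2.50 and 4.10 in castrated males. Male replicate 1, with 7 reads, was far below the rest. Females against males differed by 1.29 ± 0.47 (limma adjusted p = 0.134), and by 0.57 to 2.00 with 1 library left out. mt-Te, for glutamate, had 2.13 and 3.41 CPM in males, 2.25 and 1.92 in females, with 2.73 and 3.19 in castrated males. It was the 1 tested gene with castrated males above females in every library.

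The remaining low protein genes rest on few reads. mt-Atp6, an ATP synthase subunit, had 5.86 and 3.76 CPM in males, 5.11 and 6.03 in females, with 4.78 and 3.98 in castrated males. mt-Co2, which holds the electron entry site of cytochrome oxidase, had 2.02 and 1.53 CPM in males, 1.53 and 1.79 in females, with 1.82 and 1.71 in castrated males. Both castrated libraries were below both female libraries for mt-Atp6 (-0.31 ± 0.29, limma adjusted p = 0.559), and males overlapped both groups. For mt-Co2 all groups overlapped. mt-Co3, also of cytochrome oxidase, had 2.24 and 2.58 CPM in males, 3.07 and 3.08 in females, with 2.73 and 3.30 in castrated males, with males lowest (females against males 0.30 ± 0.29, limma adjusted p = 0.562). mt-Nd4l and mt-Nd3, both of complex I, did not pass the filter on low values, with 14 and 3 reads in all.

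Counted over genes, 23 of the 37 passed the filter and 1 was called in females against males, where 6.1% of all 15413 tested genes were called. In this comparison 20 of the 23 had a positive log2 fold change, and 14 were higher in both females than in both males, against 26.6% of all tested genes. Their median log2 fold change was 0.30, and that of all tested genes -0.012. A gene with few reads can pass the filter through the group where it is higher, so the same is given for the 9 genes with at least 100 CPM on average over all libraries, where the median was likewise 0.30, and 7 did not overlap. The calls depended on which library was left out. The median over the tested mitochondrial genes was 0.35 without female replicate 1 and 0.28 without female replicate 2.

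Castrated against intact males gave no call among the mitochondrial genes. Of 23 genes, 0 were called by limma, against 0.0389% of all tested genes. Castrated males were higher without overlap for 6 genes (mt-Co1, mt-Nd4, mt-Nd5, mt-Cytb, mt-Co3 and mt-Ty) and lower for 3 (mt-Rnr1, mt-Rnr2 and mt-Tt), where 17.3% and 18.2% of all tested genes were. The median log2 fold change was 0.063, and 0.00092 over all tested genes.

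Against females, castrated males had lower levels of most mitochondrial genes, without a call. Of 23 genes, 0 were called by limma, where 1.73% of all tested genes were. Without overlap 17 were lower, as were 28.3% of all tested genes, and all 9 genes with at least 100 CPM were among them. The median log2 fold change was -0.33, against 0.013 over all tested genes. The lowest adjusted p belonged to mt-Nd4 (-0.33 ± 0.12, limma adjusted p = 0.162). With 1 library left out, the log2 fold change of mt-Nd1 ranged from -0.57 to -0.22. Since females enter both this comparison and that with males, the directions are not separate observations.

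**Figure D5:**
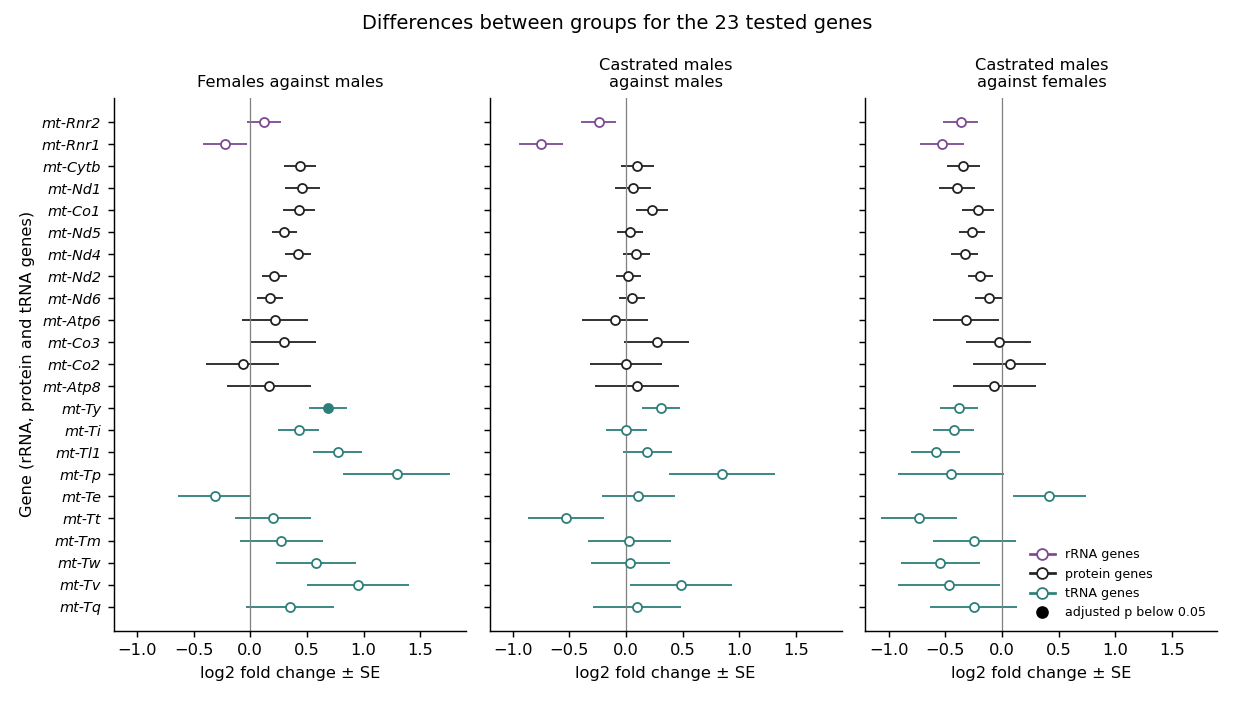
Log2 fold change with its standard error (limma) of the 23 tested mitochondrially encoded genes in the 3 comparisons; a filled point marks an adjusted p below 0.05. The only filled point is mt-Ty in females against males (0.69), and mt-Rnr1 is the lowest point in castrated males against males (-0.75).

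Calls among nuclear genes that act on mitochondrial DNA and RNA were not above the share over all tested genes. Of 58 listed genes of mitochondrial DNA maintenance, transcription and RNA processing, all of them tested, 2 rose and 0 fell in females against males, where 6.1% of all tested genes were called in either direction (42 positive, median 0.12). These were Rexo2, an exonuclease that degrades short mitochondrial RNA, with 35.6 and 39.9 CPM in males and 58.4 and 92.3 in females (0.95 ± 0.21, limma adjusted p = 0.0334), and Tbrg4, a FASTK family protein of mitochondrial RNA processing, with 63.5 and 66.1 CPM in males and 89.4 and 119 in females (0.67 ± 0.16, adjusted p = 0.0483). Leaving out 1 library changed the calls. The median was 0.18 without female replicate 1 and 0.047 without female replicate 2. In both comparisons of castrated males 0 of the 58 were called by limma. The DNA-packaging factor Tfam had 42.9 and 42.3 CPM in males, 49.9 and 53.7 in females, with 40.8 and 48.0 in castrated males.

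Of 75 nuclear genes of complexes I to V, 18 rose and 0 fell in females against males, beside 6.1% of all tested genes called in either direction. Of the 75, 74 had a positive sign, and the median was 0.46, beside 0.42 for the 7 abundant mitochondrial protein genes. The number of calls changed strongly with the library left out. The median of the 75 was 0.62 without female replicate 1 and 0.30 without female replicate 2. By complex, the genes that rose were 2 of 36 for complex I, 1 of 4 for II, 4 of 9 for III, 7 of 11 for IV and 4 of 15 for V. In castrated males against males, where 0.0389% of all tested genes were called, 1 of 75 rose (Cox7b, a small subunit of complex IV, 1.17 ± 0.11, limma adjusted p = 0.0107, lost without either castrated library; median of the list -0.021), and against females, where 1.73% were called, 7 fell and 0 rose (median -0.47). Here too the calls changed with the library left out. In castrated males against females the median was -0.62 without female replicate 1 and -0.30 without female replicate 2. Complex II has no subunit in the mitochondrial genome, and its nuclear Sdhd rose in females against males (0.67 ± 0.16, limma adjusted p = 0.0432, and a call in only 1 of the 6 fits with a library left out).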

How the data were processed

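The submitters' processing notes name the tools STAR 2.7.5a, HTSeq 0.11.1, FastQC and Picard, and GRCm38 and mm10 as builds. Annotation, read length, strand setting and the handling of reads with several matches are not stated there or in the labels. The deposited values are a score: whole reads scaled to a common total and rounded, from which whole reads were recovered. Since the deposited columns are not counts, limma 3.58.1 (R 4.3.3) on log2(CPM + 0.5) replaced the planned count test. TMM factors were computed on the recovered reads. Genes with 1.16 CPM (10 reads at the median depth) in 2 libraries and 15 reads in all were tested, in 1 fit of 6 libraries with an intensity trend and 3 residual degrees of freedom. Adjusted p-values (Benjamini-Hochberg over 15413 genes, two-sided) below 0.05 were called. Recovery and fit were tested on simulated data.

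Shared sequence was found by exact 50-base windows among GENCODE M21 transcripts, and sequences were taken from those transcripts. Every mt- gene was eligible for naming, and from each other list up to 4 genes with the smallest p. The members and lists were chosen with earlier results of these data known. The male library named 3 has the title number 2, which was used.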

Additional observations from a re-analysis of the deposited data

How the results depend on the processing

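The count of mt- genes called in females against males was 1 and fell to 0 with library totals only, a pseudocount of 0.1, no filter, no intensity trend, only the 2 groups compared, or the replicate block (where 0 were called in each comparison). Leaving out 1 library gave 0 to 4 in females against males (4 without female replicate 1), 0 to 0 in castrated males against males and 0 to 1 in castrated males against females. The deviations of same-numbered libraries had correlations of -0.153, -0.0103 and 0.194. With 2 libraries a group, these values cannot settle whether the replicate numbers pair the samples. The ratio of summed shares moved to 1.28 for females and 1.09 for castrated males against males with protein genes only, and also to 1.28 and 1.09 without the rRNA genes. Leaving out 1 library, it ranged from 1.16 to 1.24 for females and from 0.976 to 1.04 for castrated males against males (0.999 without castrated male replicate 1, 0.976 without male replicate 2), and from 0.831 to 0.847 for castrated males against females. Of 440 values for 26 results on single genes, 422 kept direction and call, 5 gained a call, 11 lost it (all mt-Ty, females against males, with a leave-one-out range of 0.52 to 0.86 and adjusted p of 0.0292 to 0.317 in limma) and 2 reversed: mt-Rnr1 to 0.011 without male replicate 1 (leave-one-out range -0.47 to 0.011) and mt-Rnr2 to -0.065 without male replicate 2 (-0.065 to 0.29), both in females against males. Causes were not tested. Adding pseudogene rows, an alternative chosen after seeing the data, changed no count of called genes, while 25 rather than 23 mt- genes were tested. Over all genes, 49 rather than 940 were called in females against males without female replicate 2. With no filter 36 of the 37 mt- genes were tested (lowest adjusted p 0.11 in limma, females against males), and mt-Tk had 0 reads.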

Other observations

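Other mitochondrial gene groups gave single calls in females against males, where 6.1% of all tested genes were called. Of 14 mitochondrial chaperones and proteases, Hspe1, the co-chaperonin of the mitochondrial matrix, was the 1 that rose in females against males, with 39.7 and 43.4 CPM in males, 60.1 and 91.5 in females, with 37.5 and 39.7 in castrated males (log2 fold change 0.83 ± 0.20, limma adjusted p = 0.0432, median of the list 0.27). Of 9 tested mitophagy genes, Bnip3, a receptor that marks mitochondria for removal, rose in females, with 51.2 and 42.2 CPM in males, 68.8 and 91.9 in females, with 55.4 and 60.7 in castrated males (0.77 ± 0.17, limma adjusted p = 0.0390, median of the list -0.14). Without female replicate 2 both calls were lost (limma adjusted p = 0.247 and 0.270), as they were without male replicate 2 or either castrated library, and that of Hspe1 also without male replicate 1. In both comparisons of castrated males, 0 genes of these lists were called by limma.

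Across 15362 tested genes with a known transcript length, the log2 fold change of females against males and the length had a Spearman correlation of -0.141, and that of castrated males against females 0.140. Genes are not independent replicates, and both comparisons share the females, so these values are a description. The part of transcript length in the differences of the mitochondrial genes was not tested.

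A second set of nuclear copies lies on chromosome 2. Gm13340 equals mt-Co1 in 1508 of 1545 bases and had 259 reads over the 6 libraries, and Gm13339 equals a part of mt-Nd2 in 493 of 510 bases and had 68.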
